A study of Mus musculus with 12 samples.

Results

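A set of 9 regulators of hair growth, among them the core genes of the Hedgehog pathway, was followed across epidermal scrapings of 12 mice. They were chosen by name: Shh, Ptch1, Gli1 and Gli2 of the Hedgehog pathway, and the transcription factors Hoxc13, Foxn1, Msx2, Lef1 and Dlx3. All 9 were present among the 14533 genes of the deposited count table. Scrapings of dorsal skin came from 6 wildtype (WT) mice and 6 mice that lack Pparg in keratinocytes (Pparg-/-epi), all C57BL/6, untreated and aged 8 to 13 weeks by the labels, and 1 library of mRNA was sequenced per mouse. Both groups carried floxed Pparg alleles (flox/flox), and the Pparg-/-epi mice in addition carried Cre recombinase under the keratin 14 promoter, which is active in basal keratinocytes, including those of the hair follicle. The WT group held 3 females and 3 males and the Pparg-/-epi group 4 females and 2 males. For some mice the age in the labels differs from that in the study's supplement, so that the ages are uncertain. The mice are numbered as in the labels, 1 to 6 for WT and 7 to 12 for Pparg-/-epi.

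The hair follicle cycles between growth (anagen), regression (catagen) and rest (telogen). In a growing follicle, Sonic hedgehog is secreted by a part of the matrix at the base of the bulb. It binds Patched on neighbouring cells, which releases Smoothened from inhibition and lets the GLI transcription factors switch on target genes, Gli1 and Ptch1 among them. Lef1, Msx2, Dlx3, Foxn1 and Hoxc13 act in the matrix and the forming hair shaft, where they are known to be needed for the expression of hair keratins. Foxn1 is the gene mutated in the nude mouse, and Dlx3 is also expressed in the differentiating layers of the epidermis between follicles.

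Total counts per library ranged from 10120840 to 18851255, so that 1 count was worth 0.0530 to 0.0988 CPM, the count scaled for library size. RIN, a measure of RNA integrity, ranged from 5.7 to 8.6. Epidermal genes were abundant in every library, with a summed level of 6 such genes of 18425 to 49634 CPM, and dermal fibroblast genes were present too, with a summed level of 6 genes of 1022 to 34920 CPM. Pparg itself, summed over the whole gene, had a median of 2.40 CPM (0.494 to 15.9) in WT mice and 4.07 CPM (1.28 to 7.10) in Pparg-/-epi mice, and the log2 ratio of the groups was -0.10 (SE 0.71, adjusted p = 0.949, edgeR) and 0.86 without WT replicate 2 (adjusted p = 0.308). Because excision leaves a shortened transcript, these counts do not check the genotype. WT replicate 2 and Pparg-/-epi replicate 8 stood apart in the hair genes described here. In most cases where leaving them out turned a direction, changed a call or moved a value widely, the value without them is given. It stands beside the result or further below. In scrapings, a change in the number of cells of a type and a change of RNA per cell cannot be told apart.

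None of the 9 members passed the test for a difference between Pparg-/-epi and WT mice. In edgeR's quasi-likelihood test a call needed an adjusted p under 0.05 and a change beyond 0.6 on the log2 scale, up or down, and 10.3% of all 14533 genes were called, 5.19% as higher and 5.08% as lower. At an unadjusted p under 0.05, 1 of the 9 members (Dlx3) was found, against 29.5% of all genes. The likelihood ratio test of edgeR and DESeq2 also called 0 of the 9, with 1 member at an unadjusted p under 0.05 in each. Of all genes they called 1712 and 1787. In none of the members did the 6 mice of one group lie on one side of the 6 mice of the other, which was so in 8.26% of all genes. The median log2 fold change of the 9 members was 0.32, and 8 of the 9 values were positive, while the median over all genes was -0.01. This rested on 1 mouse, since without Pparg-/-epi replicate 8 the members' median was -0.05 and 3 of the 9 values were positive. In the male mice alone the median was -0.34, with 2 of 9 positive. In the female mice alone all members were above 0, from 0.07 (Msx2) to 1.43 (Gli2). Without both WT replicate 2 and Pparg-/-epi replicate 8, Shh, Gli1, Foxn1 and Msx2 were below 0 and the other members above 0. The values then ran from -0.63 (Msx2) to 1.11 (Gli2).

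Shh, the ligand, was at the limit of detection. It had 0, 13, 0, 2, 18 and 46 counts in WT replicates 1 to 6 and 32, 56, 10, 1, 5 and 8 counts in Pparg-/-epi replicates 7 to 12. The 2 WT mice with 0 counts allow levels of up to 0.194 CPM (replicate 1) and 0.296 CPM (replicate 3), taking 3 counts as the floor for counting error. Pparg-/-epi replicates 8 and 7 and WT replicate 6 held most of the counts, and the groups overlapped over nearly their whole range. The log2 fold change was 0.42 (SE 0.96), with a 95% confidence interval from -1.66 to 2.51 (adjusted p = 0.816). Without Pparg-/-epi replicate 8 it was -0.30.

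Ptch1, the receptor of Shh and itself a target of the pathway, ranged in WT mice from 4.35 CPM (replicate 3) to 29.3 CPM (replicate 2) with a median of 12.5, and in Pparg-/-epi mice from 5.16 CPM (replicate 12) to 37.3 CPM (replicate 8) with a median of 15.5. The lowest mice of both groups were male and the highest were female. The log2 fold change was 0.29 (SE 0.46, 95% confidence interval -0.70 to 1.28, adjusted p = 0.729). With sex in the model it was -0.03, with RIN in the model -0.16, and without Pparg-/-epi replicate 8 it was -0.05. Without WT replicate 2 it was 0.56.

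Gli1, a transcriptional activator whose own transcription is a common readout of the pathway, had a median of 8.03 CPM (1.58 to 12.2) in WT mice and 5.64 CPM (2.498 to 19.5) in Pparg-/-epi mice. Replicate 8 lay at 19.5 CPM and the other 5 Pparg-/-epi mice lay within the WT range. The mean was 7.18 ± 4.14 CPM (SD, n = 6) in WT and 7.58 ± 6.32 CPM (SD, n = 6) in Pparg-/-epi mice. This gave a log2 fold change of 0.04 (SE 0.52, 95% confidence interval -1.08 to 1.17, adjusted p = 0.971). Without replicate 8 the log2 fold change was -0.46.

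Gli2, the main activator that acts first when the pathway is switched on, had the largest fold change of the members. It ranged from 1.99 to 13.3 CPM with a median of 4.77 in WT mice and from 2.23 to 24.2 CPM with a median of 11.0 in Pparg-/-epi mice. Pparg-/-epi replicates 7, 8 and 9, at 15.01, 24.2 and 19.3 CPM, lay above all WT mice, and replicates 10, 11 and 12, at 2.23, 7.01 and 4.51 CPM, lay among them. The log2 fold change of 1.04 (SE 0.55, 95% confidence interval -0.15 to 2.24) had an adjusted p of 0.233. It was 1.40 without WT replicate 2 and 0.74 without Pparg-/-epi replicate 8. In the male mice alone, which were 3 WT and 2 Pparg-/-epi, it was -0.64. Its difference between the sexes did not pass a test of the interaction (male minus female -2.05, SE 0.98, adjusted p = 0.895), and adjusted p for the other members ran from 0.895 to 0.991.

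Hoxc13, a homeobox factor that binds hair keratin genes, varied 18.9-fold between the lowest and the highest mouse. WT mice ranged from 2.12 CPM (replicate 4) to 27.2 CPM (replicate 2) with a median of 6.92, and Pparg-/-epi mice from 3.91 CPM (replicate 10) to 40.1 CPM (replicate 8) with a median of 10.7. WT replicate 2 was thus the second highest of all 12 mice, and the log2 fold change of 0.63 (SE 0.65, 95% confidence interval -0.77 to 2.03, adjusted p = 0.568) moved to 1.20 without it and to 0.07 without Pparg-/-epi replicate 8. With both left out, an alternative chosen after the values were seen, it was 0.66 (SE 0.54, adjusted p = 0.436). With RIN in the model it was 0.10.

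Lef1, which pairs with beta-catenin at Wnt target genes, had the second widest spread. It ranged from 0.398 CPM (replicate 4) to 6.15 CPM (replicate 6) with a median of 1.89 in WT mice, and from 0.956 CPM (replicate 10) to 17.8 CPM (replicate 8) with a median of 2.11 in Pparg-/-epi mice. The medians differed little, and replicate 8 lay far above the next highest mouse, Pparg-/-epi replicate 7 at 6.47 CPM. The log2 fold change was 0.86 (SE 0.78, 95% confidence interval -0.83 to 2.54, adjusted p = 0.513), and without replicate 8 it was -0.05.

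Msx2, a homeobox factor of the matrix, ranged from 6.23 to 17.4 CPM (median 11.1) in WT mice and from 5.02 to 27.9 CPM (median 6.90) in Pparg-/-epi mice. Pparg-/-epi replicate 8 was the highest mouse, while the median was lower in the Pparg-/-epi group. The log2 fold change was -0.09 (SE 0.39, 95% confidence interval -0.94 to 0.76, adjusted p = 0.907), and it was -0.64 without replicate 8.

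Foxn1 and Dlx3 differed from the other members in how evenly they were expressed. Foxn1 ranged from 22.8 to 31.3 CPM (median 26.2) in WT mice and from 19.1 to 35.5 CPM (median 28.5) in Pparg-/-epi mice. The groups overlapped, and the log2 fold change was 0.03 (SE 0.14, adjusted p = 0.900). It was -0.04 without WT replicate 2 and -0.04 without Pparg-/-epi replicate 8. Dlx3 ranged from 49.9 to 72.7 CPM (median 60.2) in WT mice and from 57.2 to 108 CPM (median 70.6) in Pparg-/-epi mice. Pparg-/-epi replicates 7 and 8 lay above every WT mouse in Dlx3 and the other 4 lay within the WT range. Its log2 fold change of 0.32 (SE 0.13, 95% confidence interval 0.04 to 0.59) had an unadjusted p of 0.0258 and an adjusted p of 0.111. An exact permutation test of log2(CPM + 0.5), two-sided over all splits of the mice, gave p = 0.0844 for Dlx3, and p = 0.0455 after scaling by the TMM factors. Neither was adjusted over the members. The same test gave exact p-values from 0.195 (Gli2) to 0.976 (Gli1) for the other members, where 0.00216 is the smallest p it can give.

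**Figure D1:**
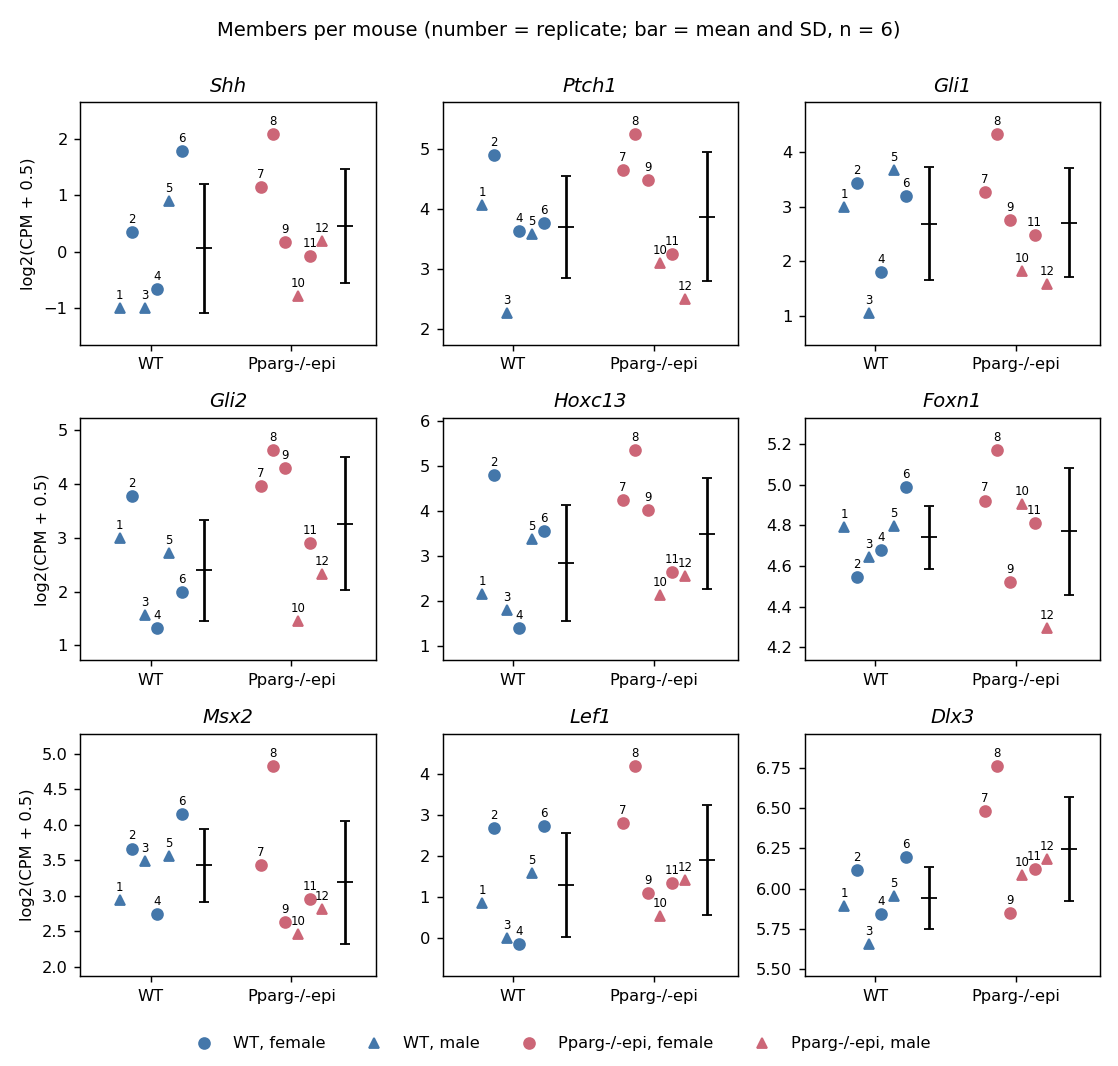
Level of each member in each mouse as log2(CPM + 0.5), with WT mice in blue, Pparg-/-epi mice in red, females as circles, males as triangles, and a bar for the mean and SD of 6 mice on the same scale. Pparg-/-epi replicate 8 is the highest of the 12 mice in all 9 panels, and the groups overlap in every panel; the y axes differ in range.

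The intervals set what these data could show. The 95% confidence intervals of Foxn1 (-0.26 to 0.33) and Dlx3 lay within the limit of 0.6 that a call needs. Those of the other 7 members reached past that limit in at least one direction. The SD within groups on the log2 scale was 0.24 for Foxn1 and 0.23 for Dlx3, below the median of 0.30 over all genes. It was 0.70 for Msx2, 0.92 for Ptch1, 1.03 for Gli1, 1.10 for Gli2, 1.25 for Hoxc13, 1.46 for Lef1 and 1.65 for Shh. Shh, the most variable member, lay at the 98.4th percentile of all genes by this spread and Msx2 at the 84.1st. With 0 to 56 counts of Shh per library, counting error adds to its spread.

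Per length of transcript, scaled to library size and exon length (RPKM), Dlx3 was the most abundant member, with a mean level of 26.6 ± 6.07 (SD over 12 mice). It was followed by Foxn1 at 8.22 ± 1.35, Hoxc13 at 5.02 ± 4.75, Msx2 at 4.93 ± 3.00, Ptch1 at 3.73 ± 2.38, Gli1 at 2.01 ± 1.39, Gli2 at 1.33 ± 1.10, Lef1 at 1.08 ± 1.32 and Shh at 0.387 ± 0.451 RPKM. Dlx3 lay above Foxn1 in 12 of 12 mice with no overlap of their ranges. From Foxn1 downwards the ranges of each neighbouring pair overlapped, and Hoxc13, above Msx2 by its mean, was above it in 4 of 12 mice only.

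The same mice were high in most members. Pparg-/-epi replicate 8 was the highest of all 12 mice in 9 of 9 members. Pparg-/-epi replicate 7 was among the top 3 in 7, WT replicate 6 in 5 and WT replicate 2 in 4. At the other end, WT replicate 3 was among the lowest 3 in 7 members, and WT replicate 4 and Pparg-/-epi replicate 10 in 6 each. Replicates 2, 6, 7 and 8 were female, replicates 3 and 10 were male and replicate 4 was female. On group-centred log2 CPM over the 12 mice, the closest pair of members was Hoxc13 and Lef1 (Pearson r = 0.89, Spearman rho = 0.90) and the least alike was Gli2 and Foxn1 (r = -0.14, rho = 0.01). These values are a description, since all genes share the same 12 libraries.

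Genes of the growing hair also varied widely from mouse to mouse. The hair shaft list held keratins and other proteins of the cortex and cuticle, of which 17 of 18 were in the table. Their summed level was 18.9, 340, 73.5, 21.7, 46.1 and 143 CPM in WT replicates 1 to 6 and 195, 746, 63.2, 33.7, 80.6 and 89.0 CPM in Pparg-/-epi replicates 7 to 12. The 4 mice with the highest sums, replicates 8, 2, 7 and 6, were the females that ranked high in the members. The groups overlapped (exact permutation test, two-sided, p = 0.383). The summed level of 10 genes of the inner root sheath, the layer that moulds the growing hair, ran from 44.3 to 2469 CPM in WT and from 159 to 5109 CPM in Pparg-/-epi mice (exact p = 0.173), again highest in Pparg-/-epi replicate 8 and WT replicate 2. Of these genes 0 of 17 and 0 of 10 were called, with 0 and 1 at an unadjusted p under 0.05 in edgeR's quasi-likelihood test. Over all genes 10.3% were called and 29.5% had such a p. The likelihood ratio test and DESeq2 called 0 of either list. Median log2 fold changes were 1.02 in the hair shaft list and 1.44 in the inner root sheath list, and both rested on single mice. Without Pparg-/-epi replicate 8 they were -0.07, with 8 of 17 genes positive, and 0.28. Krt32 of the hair shaft (-1.10, adjusted p = 0.0359) and Krt75 of the inner root sheath list (-2.20, adjusted p = 0.0201) were then called lower. Without WT replicate 2 the medians were 2.17 and 2.61, and 2 genes of the inner root sheath list, Krt72 (3.61, adjusted p = 0.0301) and Tchh (3.33, adjusted p = 0.0271), were called higher. With both mice left out the medians were 1.20 and 1.69, and Krt32 and Krt75 were called lower. These 4 genes are named because they make up the counts. S100a3, a calcium-binding protein of the hair cuticle, was the most abundant of the hair shaft list per length, with a mean of 19.5 RPKM in WT and 40.6 RPKM in Pparg-/-epi mice. On the log2 scale the difference was 1.02 (SE 0.93, adjusted p = 0.518), and it turned to -0.14 without Pparg-/-epi replicate 8.

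Across the 12 mice, 5 of the 9 members rose with the hair shaft sum, both on the log2 scale, after adjustment over 27 relations (the members against the hair shaft sum, the fibroblast sum and RIN). Lef1 had Pearson's r of 0.88 (permutation p = 0.00016, adjusted p = 0.00432) and Spearman's rho of 0.83 (permutation p = 0.00175, adjusted p = 0.0408). Hoxc13 had r = 0.85 and rho = 0.78, Msx2 r = 0.78 and rho = 0.69, Dlx3 r = 0.76 and rho = 0.76, and Shh r = 0.76 and rho = 0.76. Adjusted p for r was 0.00486 for Hoxc13 and 0.0232 for Msx2, Dlx3 and Shh, and adjusted p for rho was 0.0408 for Hoxc13, Dlx3 and Shh and 0.0765 for Msx2, which thus did not pass by rank. Without the 2 mice farthest from the median sum, WT replicate 2 and Pparg-/-epi replicate 8, r was 0.76 for Lef1, 0.73 for Shh, 0.68 for Hoxc13, 0.63 for Dlx3 and 0.56 for Msx2, the last with a permutation p of 0.0920. Within WT mice r was 0.75, 0.55, 0.83, 0.58 and 0.80 for Lef1, Shh, Hoxc13, Dlx3 and Msx2, and within Pparg-/-epi mice it was 0.99, 0.98, 0.86, 0.91 and 0.98.

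Ptch1, Gli1, Gli2 and Foxn1 did not pass the adjusted test against the hair shaft sum, with r of 0.54, 0.56, 0.63 and 0.29. Without WT replicate 2 and Pparg-/-epi replicate 8 these were 0.07, 0.19, 0.34 and 0.10. None of the 9 relations with the fibroblast sum and none of the 9 with RIN passed over the 12 mice, and Ptch1 against RIN came nearest (r = 0.71, rho = 0.71, permutation p = 0.0112 for r, adjusted p = 0.0504). The relations with the fibroblast sum depended on the 2 mice farthest from its median, WT replicates 1 and 6. Without them r rose from 0.12 to 0.81 for Hoxc13 (permutation p = 0.00343, not adjusted), from 0.01 to 0.77 for Lef1 (permutation p = 0.00969), from 0.45 to 0.66 for Gli2 (permutation p = 0.0346) and from -0.30 to 0.63 for Shh (permutation p = 0.0527).

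**Figure D2:**
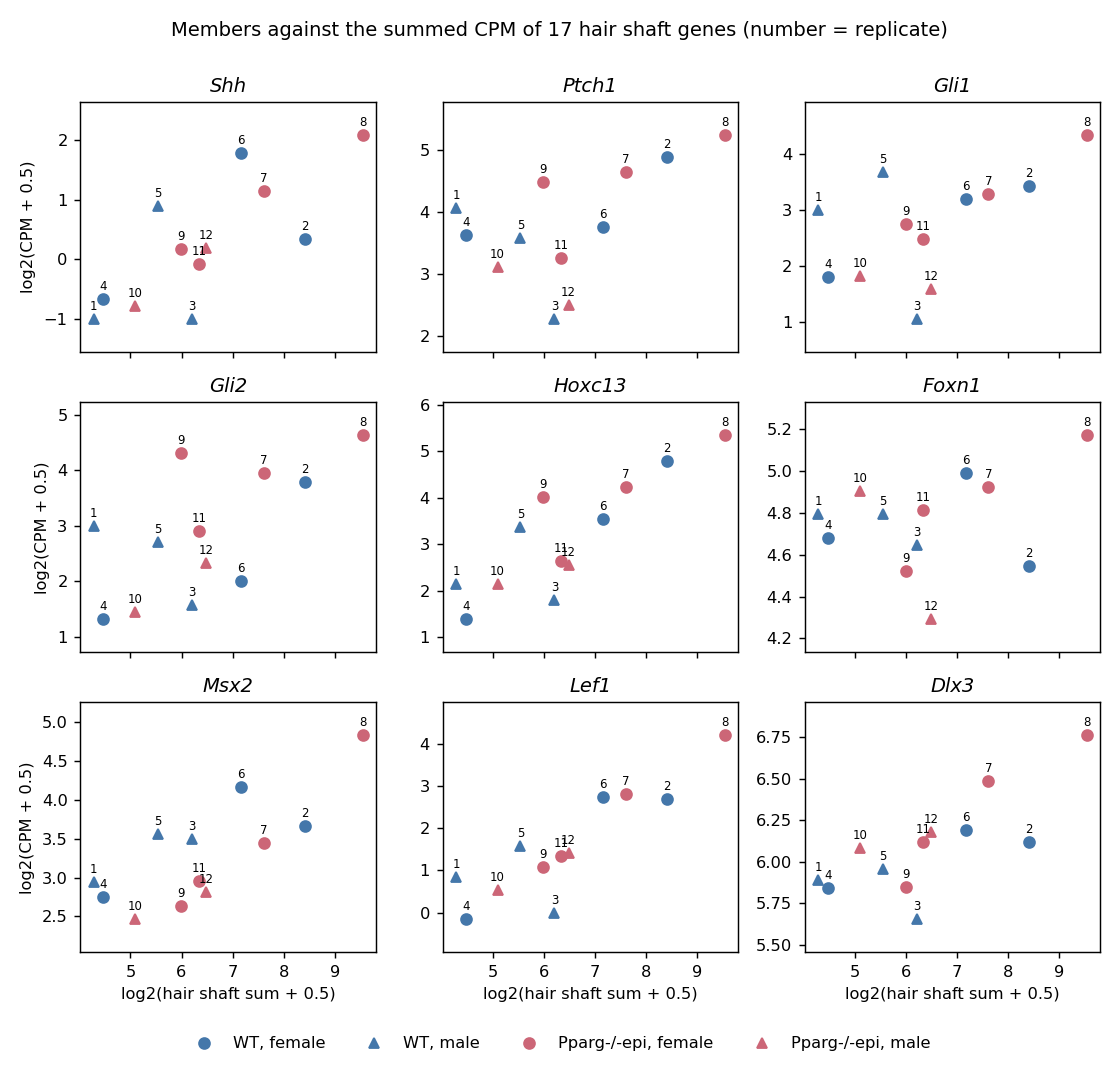
Level of each member, log2(CPM + 0.5), against the summed CPM of 17 hair shaft genes on the same scale, one point per mouse with its replicate number. Lef1 and Hoxc13 rise with the sum, with r of 0.88 and 0.85, but unevenly among the lower sums. Hoxc13 is at 15.7 CPM in Pparg-/-epi replicate 9 and at 2.96 CPM in WT replicate 3, at sums of 63.2 and 73.5 CPM. Foxn1 is scattered at every hair shaft level, with r of 0.29.

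Pigment cell and dermal genes are given beside these values. The summed level of 4 melanocyte genes ran from 3.26 to 39.1 CPM in WT and from 10.2 to 182 CPM in Pparg-/-epi mice, with the highest value in replicate 8 and 0 of 4 genes called or at an unadjusted p under 0.05. The likelihood ratio test and DESeq2 also called 0 of the 4, with 2 and 1 at an unadjusted p under 0.05. In the quasi-likelihood test 10.3% of all genes were called and 29.5% had an unadjusted p under 0.05. The summed level of 7 dermal papilla genes, the mesenchymal cells at the base of the follicle, ran from 40.4 to 112 CPM and from 18.8 to 98.6 CPM. The fibroblast sum was highest in WT replicate 1 (34920 CPM) and lowest in WT replicate 6 (1022 CPM), and was 12218 CPM in Pparg-/-epi replicate 8. WT replicate 2 and Pparg-/-epi replicates 7 and 8 also had the highest RIN of the 12 mice, 8.6, 8.6 and 8.5. The members were related to the fibroblast sum and to RIN above, and sex and RIN entered some fits. Beyond that, the part of pigment cells, dermal cells, RNA integrity and sex in the members' levels was not tested.

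**Figure D3:**
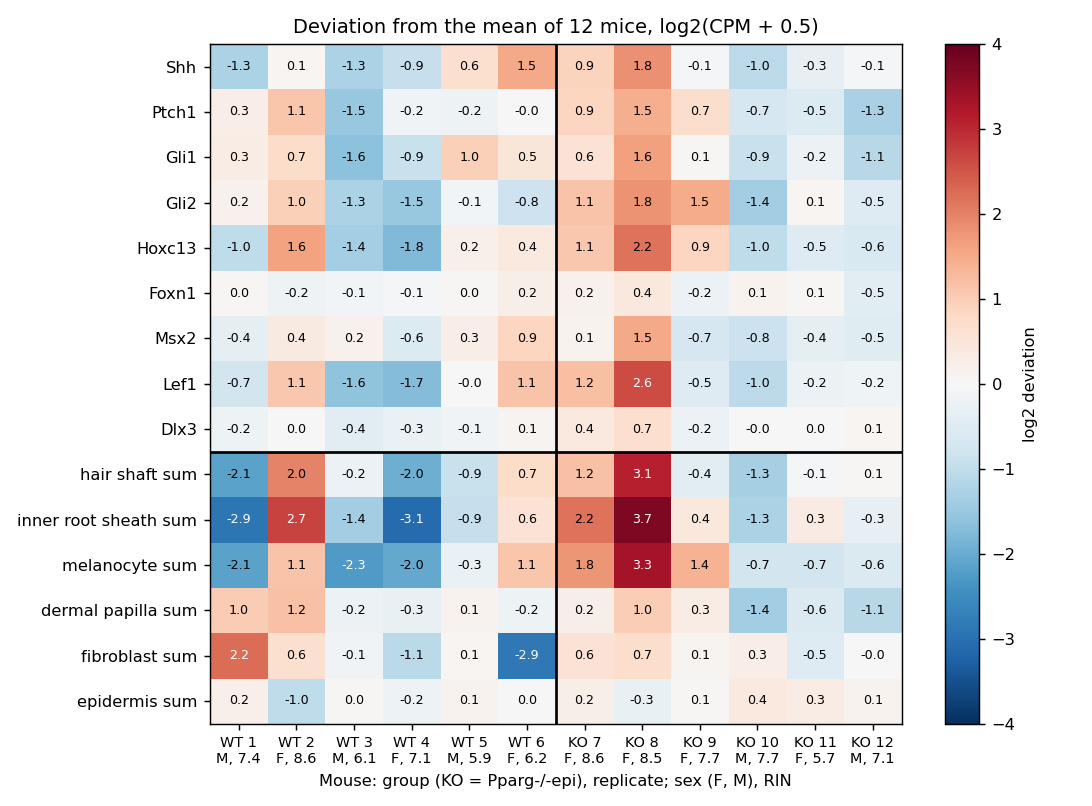
Deviation of each member and of 6 summed marker lists from its mean over the 12 mice, in log2(CPM + 0.5), with red for higher and blue for lower and with sex and RIN under each mouse. The columns of WT replicate 2 and Pparg-/-epi replicates 7 and 8 are red in most members and in the hair shaft, inner root sheath and melanocyte sums, and the Foxn1 and Dlx3 rows are pale.

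Among 13800 genes with a mean of at least 1 CPM, the 3 whose group-centred log2 CPM was most like that of each member over the 12 mice were listed. A high r follows from taking the 3 best of so many genes, so that these values are a description only. They were not computed without WT replicate 2 and Pparg-/-epi replicate 8. Hoxc13 was closest to Hhip (r = 0.96, rho = 0.97), a secreted decoy that binds Hedgehog ligands, then to Dsg4, a desmosomal cadherin of the hair shaft (r = 0.95), and Syt4 (r = 0.95). Lef1 was closest to Dsg4 (r = 0.95), Hhip (r = 0.94) and the pigment gene Pmel (r = 0.92). Shh was closest to Mycn (r = 0.90), Pmel (r = 0.89) and Tyrp1 (r = 0.88), the last 2 of them genes of pigment granules. Gli1 was closest to Wif1 (r = 0.97), a secreted Wnt inhibitor, Atp6v0e2 (r = 0.96) and Smoc1 (r = 0.94). Msx2 was closest to Trpm1 (r = 0.92), Fbp1 (r = 0.89) and the inner root sheath keratin Krt28 (r = 0.86). Ptch1 was closest to Bhlhb9, Ppp1r26 and Specc1l (r = 0.97 each), and Gli2 to Zfp334 (r = 0.97), Sox18 (r = 0.96) and Flot2 (r = 0.96). Foxn1 was closest to Peo1 (r = 0.88), Ska1 (r = 0.86) and Slc27a3 (r = 0.85), and Dlx3 to Npc1l1 (r = 0.87), Dlx2 (r = 0.85), its own family member, and Alox8 (r = 0.85).

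LEF/TCF factors recognise CTTTGAA or CTTTGAT, and hair keratin promoters are known as places where LEF1 binds. Since Lef1 was the member closest to the hair shaft sum, RefSeq promoter windows (GRCm38.p6) were searched over 250 bases before the start site on both strands. Of the 10 hair shaft genes with a window, 6 (60.0%) held a match, namely Krt31, Krt32, Krt33b, Krt34, Krt39 and S100a3, and of the 9 inner root sheath genes with a window 1 (Tchh) did, against 8.63% of 27025 genes. The keratins among them are neighbours in 1 cluster on chromosome 11, so they are not independent. The stretches below run 5′ to 3′ along the gene, with the matching letters in capitals:
Krt31 (minus strand, chr11:100050749-100050801): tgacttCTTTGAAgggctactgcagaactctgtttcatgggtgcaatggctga
Krt33b (minus strand, chr11:100030069-100030118): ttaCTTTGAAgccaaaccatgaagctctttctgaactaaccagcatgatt
Krt34 (minus strand, chr11:100041641-100041727): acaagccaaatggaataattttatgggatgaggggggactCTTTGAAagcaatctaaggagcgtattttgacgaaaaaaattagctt
Krt39 (minus strand, chr11:99521339-99521397): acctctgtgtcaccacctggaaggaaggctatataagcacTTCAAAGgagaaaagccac
S100a3 (plus strand, chr3:90600035-90600121): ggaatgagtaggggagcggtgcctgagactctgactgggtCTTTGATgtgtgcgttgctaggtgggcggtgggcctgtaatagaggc
Tchh (plus strand, chr3:93442146-93442232): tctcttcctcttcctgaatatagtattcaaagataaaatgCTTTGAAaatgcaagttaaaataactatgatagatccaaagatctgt

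In Krt39 the match is on the opposite strand, 19 bases before the start site, and the Tchh stretch holds another match on the opposite strand in lower case. A match is a description of these letters and not of binding. Of the members, Gli2, Lef1, Foxn1, Msx2 and Ptch1 had a window, and none of the 5 held the LEF/TCF letters or the GLI consensus GACCACCCA, which 0.255% of all genes with a window held.

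Among the wider Hedgehog genes, Disp1 and Kif3a were called lower in Pparg-/-epi mice. The list held 48 genes, of which 43 were in the table, and 0 were called higher and 2 lower, against 5.19% and 5.08% of all genes, so that the share called lower was near that of all genes. Disp1, which releases lipid-modified Hedgehog from the cell that makes it, ranged from 11.5 to 20.8 CPM (median 14.7) in WT mice and from 5.08 to 10.9 CPM (median 8.68) in Pparg-/-epi mice. The groups did not overlap, and Disp1 fell by 0.91 on the log2 scale (SE 0.18, adjusted p = 0.00475, edgeR). Kif3a, a motor subunit that builds the primary cilium in which the signal is relayed, fell by 0.64 (SE 0.16, adjusted p = 0.0160). Its groups overlapped, with 45.1 to 73.2 CPM in WT and 33.7 to 47.8 CPM in Pparg-/-epi mice. The call for Kif3a was lost with sex or RIN in the model, without WT replicate 3 (log2 fold change -0.54) and within each sex.

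Smo, the signal transducer Smoothened, and Cul3 and Btrc, both parts of ubiquitin ligases that act on GLI proteins, had adjusted p under 0.05 but changes below 0.6. Smo ranged from 52.8 to 98.9 CPM in WT and from 84.7 to 112 CPM in Pparg-/-epi mice (log2 fold change 0.41, SE 0.13, adjusted p = 0.0439, and 0.112 without Pparg-/-epi replicate 8). Cul3 ranged from 320 to 361 CPM and from 418 to 544 CPM without overlap (0.49, SE 0.10, adjusted p = 0.00563). Btrc was at -0.54 (SE 0.12, adjusted p = 0.00794). Gli3, mainly a repressor, had a log2 fold change of 0.52 (SE 0.34, adjusted p = 0.342). Hhip, the decoy, was at -0.30 (SE 0.78, adjusted p = 0.842), at -1.30 without Pparg-/-epi replicate 8 and at 0.07 without WT replicate 2. The most abundant genes per length were Csnk1a1, a kinase that marks GLI proteins for processing (188 RPKM in WT and 213 RPKM in Pparg-/-epi mice), and, among the targets, the cyclin Ccnd2 (79.0 and 68.2 RPKM). The median log2 fold change of the 39 Hedgehog genes other than the members was -0.01, and that of all genes was -0.01.

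Without WT replicate 2, which was high in many hair genes, 5 Hedgehog genes were called, with Sox9 (1.36), Gpr161 (1.19) and Sufu (0.63) higher beside Disp1 and Kif3a. That fit called 2249 of all 14533 genes, against 1493 with all mice, so that calls rose in general. Without both WT replicate 2 and Pparg-/-epi replicate 8, 4 Hedgehog genes were called, Sox9 (1.29) higher and Disp1, Kif3a and Btrc lower, beside 1863 of all genes. Sufu, the inhibitor that holds GLI proteins in the cytoplasm, was not called with all mice (0.56, SE 0.18, adjusted p = 0.0581).

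**Figure D4:**
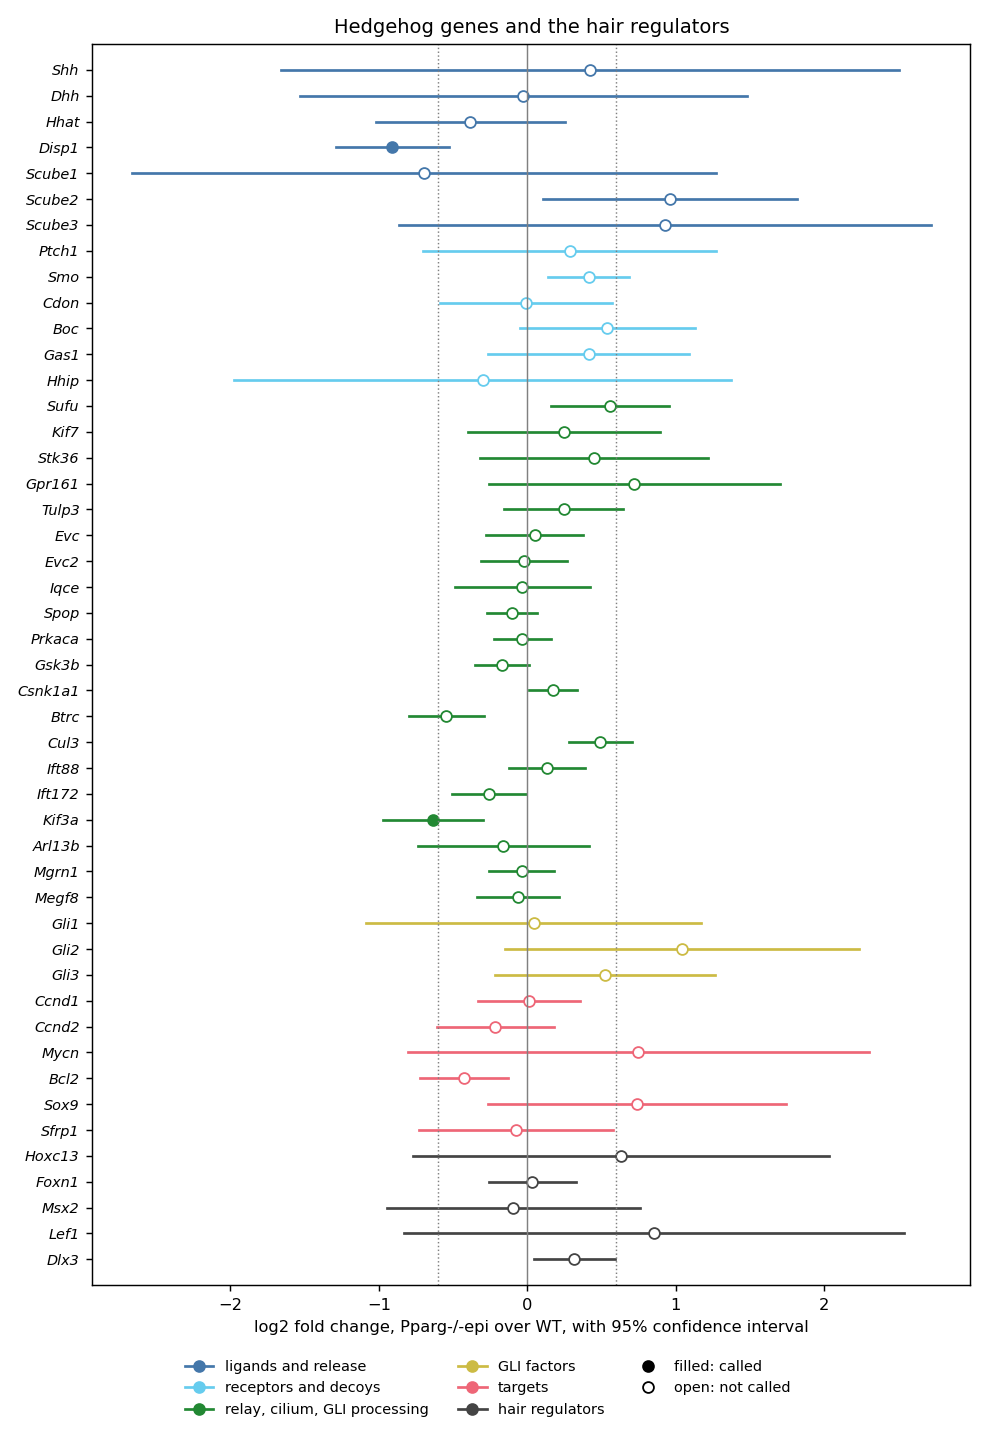
Log2 fold change of Pparg-/-epi over WT mice with its 95% confidence interval for the Hedgehog genes reported here, coloured by role, and for the 5 other members; dotted lines mark the limit of 0.6 and filled circles called genes. Disp1 and Kif3a are the filled points, both left of the lower limit, while the intervals of Shh, Ptch1, Gli1 and Gli2 cross 0.

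Among other transcription factors of the hair follicle, Runx1, Egr2, Vdr and Barx2 were higher and Tfap2b and Gata3 lower in Pparg-/-epi mice. Of 30 listed, 29 were in the table, and 4 were called higher and 2 lower, against 5.19% and 5.08% of all genes. Since the list was chosen with earlier results of these data known, these shares are not read as an excess. Runx1, which is known to promote entry of follicle stem cells into growth, rose from a median of 11.8 CPM (9.98 to 51.98) in WT to 72.1 CPM (33.6 to 106) in Pparg-/-epi mice, which is a rise of 1.86 on the log2 scale (SE 0.42, adjusted p = 0.0109). Egr2 rose by 1.29 (SE 0.27, adjusted p = 0.00737) and Vdr, the vitamin D receptor that the hair cycle needs, by 1.01 (SE 0.23, adjusted p = 0.0120). Barx2, named because it completes the count, rose by 0.78 (SE 0.23, adjusted p = 0.0359), a call that was kept in 1 of the 12 fits with 1 mouse left out. Tfap2b fell by 1.40 (SE 0.13, adjusted p = 7.82e-05), from 98.7 to 150 CPM in WT to 42.9 to 62.8 CPM in Pparg-/-epi mice, with no overlap. Gata3, a factor of the inner root sheath and the most abundant of the list per length, fell by 0.98 (SE 0.26, adjusted p = 0.0238), a call lost when WT replicate 3, 4 or 6 or Pparg-/-epi replicate 7 or 9 was left out.

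Elf5 and Lhx2 had fold changes above 2, up or down, without a call in edgeR's quasi-likelihood test. Elf5 had a log2 fold change of 1.46 (SE 0.48, adjusted p = 0.0556), with a WT median of 3.23 CPM and 1 WT mouse at 19.3, and without WT replicate 2 it was 2.25 and called. It was also called by the likelihood ratio test (adjusted p = 0.0202) and DESeq2 (adjusted p = 0.0113), and with sex, RIN or age in edgeR's quasi-likelihood model (adjusted p = 0.0420, 0.0265 and 0.0376). Lhx2, a bulge factor, had a log2 fold change of -1.31 (SE 0.77, adjusted p = 0.283), which was -0.64 without WT replicate 2 and -1.87 without Pparg-/-epi replicate 8. Without WT replicate 2, 8 factors of the list were called higher and 2 lower, in a fit that called 2249 of all 14533 genes. The closest family members of the factors among the 9, of which 16 of 24 were in the table, had 0 calls with 3 at an unadjusted p under 0.05. Over all genes 10.3% were called and 29.5% had such a p. The likelihood ratio test gave these family members 0 calls and 0 such p, and DESeq2 0 calls and 3. Their median log2 fold change was 0.36. Tcf7l1 was called higher without WT replicate 2 (1.12) and Hoxc9 without WT replicate 3 (0.98).

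Secreted factors that time the hair cycle were called in 4 of 10 cases, 1 higher and 3 lower, against 10.3% of all genes. The list was chosen with earlier results of these data known, so that its share is not read as an excess. The count was 3 with sex or age in the model or with scaling to total counts, 2 in female and 0 in male mice alone, and 2 to 4 with 1 mouse left out (2 without WT replicate 3, 5 or 6 or without Pparg-/-epi replicate 7, 8, 9, 10 or 11). Fgf18, known to be high in the resting phase, was between 3.26 and 35.7 CPM (median 9.72) in WT mice and between 0.311 and 1.13 CPM (median 0.962) in Pparg-/-epi mice. It fell by 3.96 on the log2 scale (SE 0.56, adjusted p = 0.000894), with no overlap of the groups. Bmp4, one of the BMP signals of the resting phase, fell by 1.12 (SE 0.22, adjusted p = 0.00520) with no overlap, and Bmp2 by 0.68 (SE 0.21, adjusted p = 0.0446). Sostdc1, a secreted antagonist of BMP and Wnt, rose by 1.32 (SE 0.41, adjusted p = 0.0462). Of the 12 fits with 1 mouse left out, 8 lost the call of Bmp2, 9 that of Sostdc1 and none that of Fgf18 or Bmp4. Fgf10 and Bmp6 had log2 fold changes of 1.22 (SE 0.62, adjusted p = 0.209) and -1.32 (SE 0.59, adjusted p = 0.155), the latter at -0.88 without WT replicate 2.

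In each of 4 further lists of 6 to 8 genes 1 gene was called, beside 10.3% of all genes, and nothing about these lists is read from such counts. Of 8 known targets of LEF/TCF and beta-catenin in the table, 1 was called, Lgr6, a stem cell receptor for R-spondins, which fell by 1.19 (SE 0.23, adjusted p = 0.00477). Of the dermal papilla list 1 of 7 was called, Rspo3, an R-spondin, which fell by 2.46 (SE 0.27, adjusted p = 0.000206), from 10.5 to 28.3 CPM in WT to 2.67 to 5.18 CPM in Pparg-/-epi mice. Of 6 bulge genes 1 was called, Krt15, which fell by 1.74 (SE 0.26, adjusted p = 0.00106). Of 6 interfollicular genes 1 was called, Krt14, which rose by 0.98 (SE 0.20, adjusted p = 0.00559), of 5 cell division genes 4 were called higher and of 5 sebocyte genes 5 lower. Of the 6 fibroblast genes 0 were called by edgeR's tests or DESeq2, with 0 at an unadjusted p under 0.05 in each. Without WT replicate 2, Sox18 of the dermal papilla list (1.80), Sox9 of the bulge list (1.36) and Krt1 of the interfollicular list (0.79) were called higher as well, and Krt1 also without WT replicate 1 (1.26).

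Leaving out each mouse in turn left all members uncalled but moved the estimates. Pparg-/-epi replicate 8 had the largest effect on most of them, and without it the log2 fold changes of Shh, Ptch1, Gli1, Foxn1 and Lef1 were -0.30, -0.05, -0.46, -0.04 and -0.05, all below 0. Dlx3, Gli2 and Hoxc13 kept a positive value in each of these 12 fits, from 0.21 to 0.38 for Dlx3, 0.74 to 1.40 for Gli2 and 0.07 to 1.20 for Hoxc13.

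**Figure D5:**
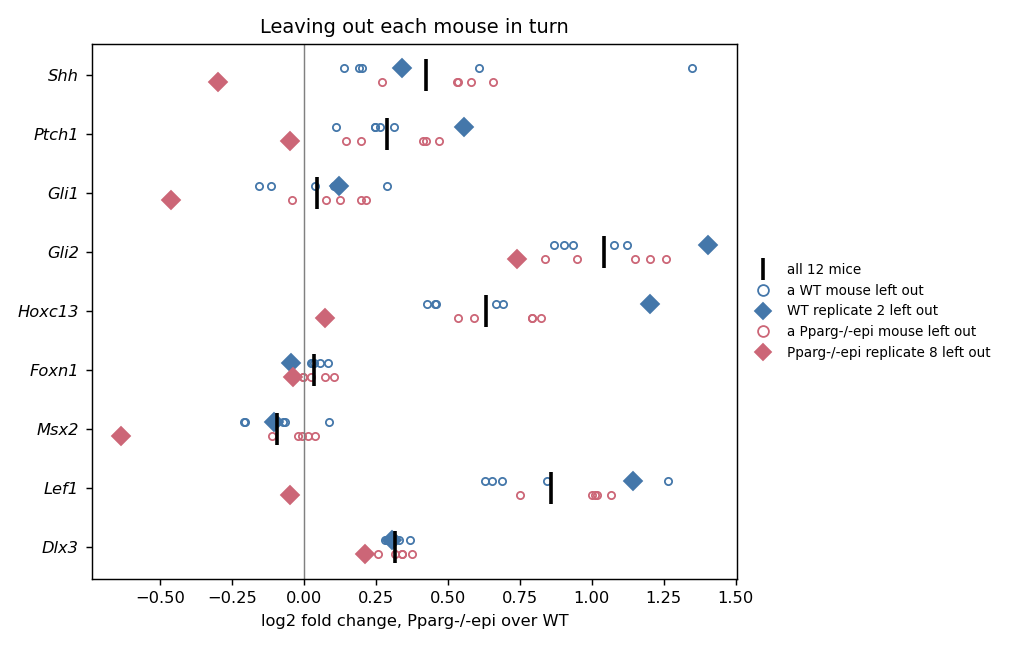
Log2 fold change of each member with all 12 mice (black bar) and with 1 mouse left out (blue for a WT mouse, red for a Pparg-/-epi mouse, diamonds for WT replicate 2 and Pparg-/-epi replicate 8). Leaving out Pparg-/-epi replicate 8 gives the lowest value for Shh, Ptch1, Gli1, Gli2, Hoxc13, Msx2, Lef1 and Dlx3, and the spread of points is narrowest for Foxn1 and Dlx3.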

How the data were processed

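Reads were aligned by the authors with STAR 2.5.2b to mm10 and counted per gene with featureCounts of Subread 1.5.1. The deposited counts of 14533 genes in 12 libraries were used without normalization, and 2800 blank rows were left out. Each listed gene had more than 0.5 CPM in at least 6 mice. Whether counting used the strand is not given in the sources used here. Exons of Shh, Gli1 and Lef1 overlap genes on the opposite strand in GENCODE M21, Arhgap9 at Gli1 among them, and such reads could not be told apart. Each library is 1 mouse. CPM was computed from total counts, and RPKM with the exon length in the deposited table.

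Counts were compared with edgeR 4.0.16 (R 4.3.3), by TMM normalization and the quasi-likelihood test with genotype as the only term, Benjamini-Hochberg adjustment over all 14533 genes, and a call at an absolute log2 fold change of 0.6 and an adjusted p under 0.05. SE was the log2 fold change over the square root of F. The scripts were tested on simulated counts. Alternatives were the likelihood ratio test, DESeq2 1.42.0, total-count and median-ratio scaling, a minimum of 10 counts, covariates, sexes apart and each mouse left out. Permutation tests of relations used 100000 permutations. The members and lists were chosen with earlier results of these data known. The genes named from each list were those called (up to 4 by adjusted p), the most abundant per length and up to 2 with a fold change over 2 and no call, and for each member its 3 closest genes. Some genes this rule allows are left out of the text, and 1 Hedgehog gene that entered the counts is not reported here.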

Additional observations from a re-analysis of the deposited data

Results flagged for a closer look

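Dixon's test was run on CPM in 26 groups of values, the 9 members and 4 summed lists in 2 genotypes. The nominal rate of about 1 flag in 20 holds for independent groups of normally spread values. These groups share 12 libraries and were not put on the log2 scale, so their flags are not read as an excess over chance. A single mouse stood apart from the other 5 of its group in 8 of the 26. In Pparg-/-epi replicate 8 these were Msx2 at 27.9 CPM, Lef1 at 17.8 CPM, the hair shaft sum at 746 CPM, the inner root sheath sum at 5109 CPM and the melanocyte sum at 182 CPM. In WT replicate 2 they were Hoxc13 at 27.2 CPM and the inner root sheath sum at 2469 CPM. The fibroblast sum of WT replicate 1, at 34920 CPM, was the last. All but that one were high values in female mice with a RIN of 8.5 or 8.6, and the part of sex and RNA integrity in these flags was not tested.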

How the results depend on the processing

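The paper describes the WT mice as sibling controls. The replicate numbers do not tell which WT and Pparg-/-epi mice were siblings, and no paired analysis was made. None of the 9 members was called under any alternative (0 each time), and Dlx3 kept its direction in all of them. In male mice alone the log2 fold changes were Shh -0.34, Ptch1 -0.67, Gli1 -1.34, Gli2 -0.64, Hoxc13 -0.27 and Foxn1 -0.11, and in female mice alone Msx2 was at 0.069. With sex as a covariate Ptch1 was at -0.028 and Gli1 at -0.23, with RIN Ptch1 at -0.16 and Gli1 at -0.25, and with age, taken from the labels and uncertain for some mice, Gli1 at -0.10. Leaving out both WT replicate 2 and Pparg-/-epi replicate 8, chosen after seeing the data, gave Shh -0.36, Gli1 -0.37 and Foxn1 -0.10. Leaving out 1 mouse at a time gave ranges of -0.30 to 1.35 for Shh, -0.047 to 0.56 for Ptch1, -0.46 to 0.29 for Gli1, -0.04 to 0.10 for Foxn1, -0.64 to 0.089 for Msx2 and -0.050 to 1.27 for Lef1. In the exact permutation test, Dlx3 had p = 0.0455 after TMM scaling (difference 0.30 on the log2 scale). This p was not adjusted over the 9 members, and without that scaling it was above 0.05. The cause of these shifts was not tested. Shh and Lef1 had under 10 counts in some library and gave no value under that minimum.

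Called Hedgehog genes, 2 with all mice, numbered 1 with sex or RIN as a covariate, 1 in females, 0 in males, 4 without both mice, and 1 to 5 with 1 mouse left out, the 5 without WT replicate 2. Called hair transcription factors, 6 with all mice, numbered 1 in females, 1 in males and 4 to 10 with 1 mouse left out, the 10 without WT replicate 2. Over all genes 651 were called in females, 18 in males and 1116 (without Pparg-/-epi replicate 9) to 2249 (without WT replicate 2) with 1 mouse left out. Fewer mice enter the fits within a sex. The mouse names begin with numbers. Every such number but 1 was held by mice of 1 genotype only, with 4 WT mice under 1 of them. Across those numbers, genotype and whatever the numbers stand for cannot be told apart. The remaining number is shared by a WT mouse (replicate 2) and a Pparg-/-epi mouse (replicate 10), so that no test within it was possible. In that pair 8 of the 9 members were lower in the Pparg-/-epi mouse, with Dlx3 at 67.3 against 69.0 CPM. The pair is 1 mouse against 1 mouse and also differs in sex and RIN. WT replicate 2 was female with a RIN of 8.6, and Pparg-/-epi replicate 10 was male with a RIN of 7.7. The same share over all genes was not computed, and nothing about genotype is read from the pair. With 0 to 56 counts per library, depth limits Shh.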
